A study of Mus musculus with 23 samples.

Results

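Foxi1, the forkhead transcription factor that specifies ionocytes, was followed together with 9 genes that ionocytes use or are recognised by, in mouse medullary thymic epithelial cells (mTECs) with and without the autoimmune regulator Aire. The 10 genes were chosen by name, but with earlier results of these data known. The transcription factors are Foxi1, Foxi2 and Ascl3. Transport genes are the chloride channel gene Cftr and the ion cotransporter gene Slc12a2. The others are the proton pump subunit genes Atp6v1b1, Atp6v0d2 and Atp6v1c2, the chloride channel accessory gene Bsnd and the adaptor protein gene Stap1. Each symbol matched 1 identifier, giving 10 of the 53402 genes in the count table, and all 10 were among the 19310 genes that were tested. RNA of sorted thymic epithelial cells from AireKO and wild-type (WT) C57BL/6 mice was sequenced in bulk, in 23 libraries.

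All libraries came from cells sorted as DAPI-negative, CD45-negative, EpCAM-positive and Ly51-negative, then split by surface MHC class II into a high gate (mTEChi) and a low gate (mTEClo). AireKO mTEChi comprised 4 male libraries, 2 at 5 weeks and 2 at 6 weeks of age. WT mTEChi comprised 7 libraries, 5 male and 2 female, 2 at 4 weeks and 5 at 5 weeks. AireKO mTEClo comprised 4 male libraries, 2 at 5 weeks and 2 at 6 weeks. WT mTEClo comprised 8 libraries, 5 male and 3 female, 5 at 4 weeks and 3 at 5 weeks. The labels give no further detail of the AireKO allele and no agent, and they do not say whether libraries came from separate animals, so p-values measure the spread between libraries, which may be technical. No WT library was 6 weeks old and no AireKO library was 4 weeks old or female. In bulk RNA, fewer cells of a type and less RNA per cell cannot be told apart.

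Ionocytes are rare epithelial cells, best known from the airway, inner ear, epididymis and, as intercalated cells, the kidney collecting duct, that move protons, chloride and bicarbonate across an epithelium. Foxi1 is required for them, and in mice its loss removes proton pump subunits from the kidney, inner ear and epididymis. The proton pump, the vacuolar-type ATPase, is built from a cytosolic sector that splits ATP and a membrane sector that passes protons; most subunits are made in nearly every cell, and some have isoforms used mainly by acid-secreting cells. In the thymus, mTECs display antigens of other tissues to developing T cells. Part of this display is driven by Aire, and part comes from mimetic mTECs, small subsets that adopt the transcription factors of other cell types, an ionocyte-like subset among them.

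The genes lie on 7 chromosomes of the GRCm38 build and are all annotated as protein coding. Foxi1 is at chr11:34204338-34208089 on the minus strand, Foxi2 at chr7:135410308-135413622 on the plus strand and Ascl3 at chr7:109727465-109731726 on the minus strand. Cftr is at chr6:18170687-18322768 on the plus strand and Slc12a2 at chr18:57878678-57946821 on the plus strand. Atp6v1b1 is at chr6:83742990-83758855 on the plus strand, Atp6v0d2 at chr4:19876841-19922605 on the minus strand and Atp6v1c2 at chr12:17284721-17329359 on the minus strand. Bsnd is at chr4:106483456-106492283 on the minus strand and Stap1 at chr5:86071746-86106125 on the plus strand. The libraries do not keep strand, so reads from 129 exon bases that Cftr shares with Gm15592 and from 50 that Atp6v1c2 shares with Pdia6 cannot be assigned to either gene. No other gene of the 10 shares exon bases with a neighbour.

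Aire, the gene named in the genotype label, had 38.1, 37.9, 20.96 and 16.6 CPM in the 4 AireKO mTEChi libraries, against 746 to 914 CPM in WT mTEChi with a median of 829.2 CPM. CPM is a count made comparable between libraries by their totals and TMM factors. In AireKO mTEClo it had 7.63, 3.11, 0 and 0.245 CPM, against 19.2 to 128 CPM in WT mTEClo. The log2 change of Aire in mTEChi was -4.91 ± 0.46 (SE, adjusted p = 5.6e-08). Each SE of a log2 change is approximate: the size of the change divided by the square root of the test's F statistic. It was not estimated by the fit itself and is unreliable for a change near 0. Every adjusted p is from the edgeR quasi-likelihood test with Benjamini-Hochberg adjustment over all genes tested, unless another tool is named. Library totals were 2528049 to 3106026 counts in AireKO mTEChi, 1602125 to 3231079 in WT mTEChi, 1639231 to 3938588 in AireKO mTEClo and 1628778 to 3883437 in WT mTEClo. Of the libraries 6 had under 2000000 counts, 0 in AireKO mTEChi and 2 each in WT mTEChi, AireKO mTEClo and WT mTEClo, so 1 count was worth up to 0.625 CPM. All 10 mTEC markers listed, among them Epcam, Krt5, Fezf2 and H2-Aa, were detected in every group. In AireKO mTEChi 4 of the 10, Aire included, were lower and 0 higher, beside 29.4% lower and 23.9% higher over all genes tested. Enpep, which encodes the Ly51 antigen used to exclude cells, averaged 2.81 ± 1.75 CPM in AireKO mTEChi (n = 4) and 45.3 ± 9.23 CPM in WT mTEChi (n = 7).

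Without Aire, 8 of the 10 genes were lower in mTEChi: Foxi1, Foxi2, Cftr, Slc12a2, Atp6v1b1, Atp6v0d2, Atp6v1c2 and Bsnd. Of all 19310 genes tested, 29.4% passed as lower and 23.9% as higher at an adjusted p under 0.05, and 0 of the 10 genes passed as higher. In all 8, every AireKO mTEChi library lay below every WT mTEChi library, which held for 20.8% of all genes tested. The median log2 change was -3.10 over the 10 genes and -0.05 over all genes tested. Because the 10 genes were chosen with earlier results of these data known, these contrasts with all genes are a description and not a test. The filter on low counts required 3.33 CPM, or 10 counts in a library of median size, in at least 4 libraries. Of the 8, Foxi2, Atp6v0d2 and Bsnd had no AireKO library of either gate past it, so WT libraries alone brought them into the test. Foxi1, Atp6v1b1 and Atp6v1c2 also had no AireKO mTEChi library past it, only AireKO mTEClo and WT libraries.

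**Figure D1:**
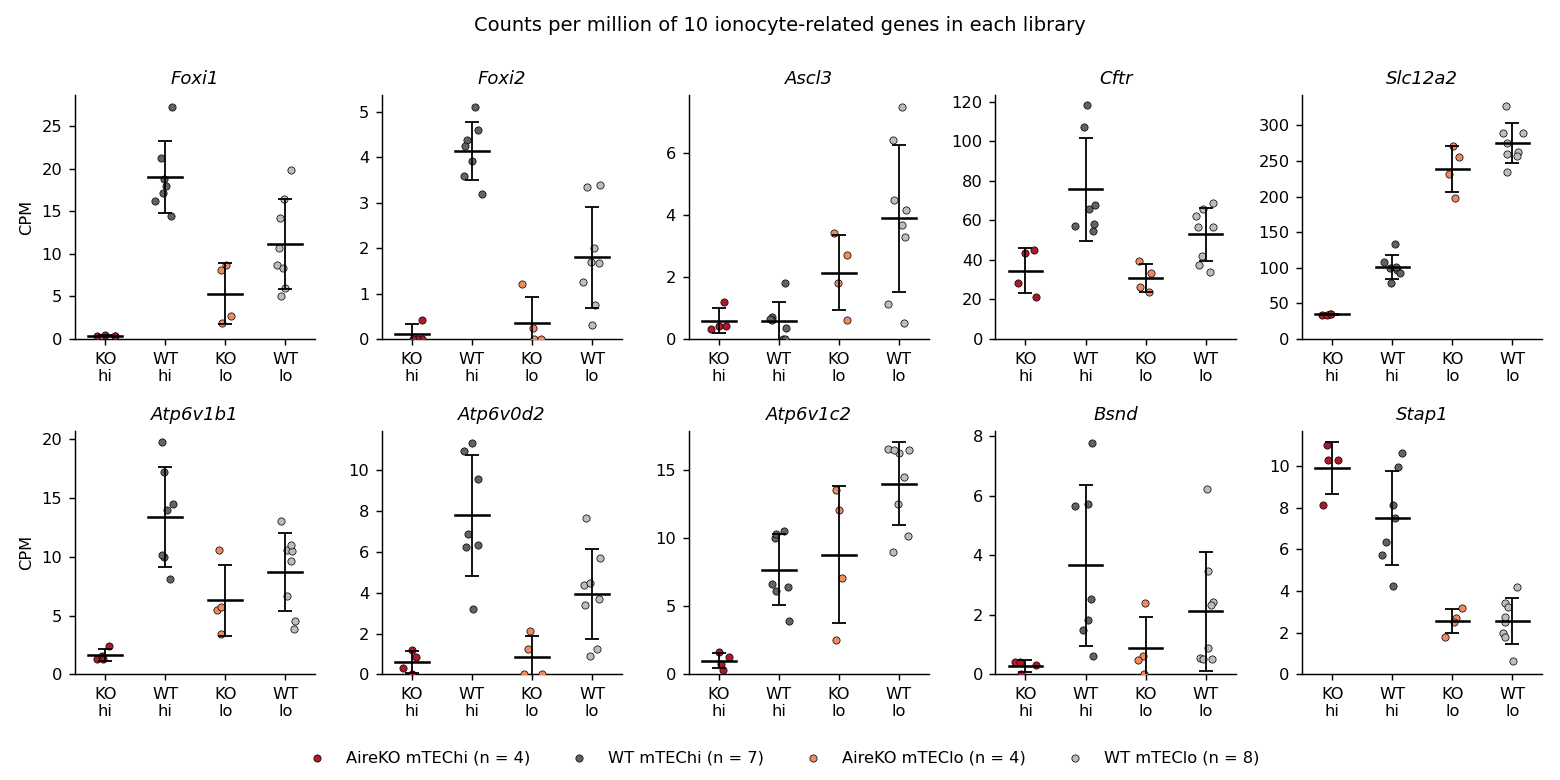
CPM of each of the 10 genes in every library (points), for AireKO mTEChi, WT mTEChi, AireKO mTEClo and WT mTEClo, with the mean (bar) and SD (whiskers) of each group. The AireKO mTEChi points lie below all WT mTEChi points for 8 genes, and overlap them for Ascl3 and Stap1.

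Foxi1 fell almost to the limit of detection in AireKO mTEChi. It had 0.428, 0.395, 0.333 and 0.406 CPM in AireKO mTEChi, a single count in each of the 4 libraries, against 14.5 to 27.3 CPM with a median of 18.0 CPM in WT mTEChi, where 351 counts were found in all. The groups did not overlap, and Foxi1 fell by 5.57 ± 0.56 on the log2 scale in AireKO mTEChi, or 47.5-fold (adjusted p = 3.9e-09, edgeR quasi-likelihood test).

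Foxi2, a close relative of Foxi1 in the same forkhead family, was lower at lower levels. It had 0.428, 0, 0 and 0 CPM in AireKO mTEChi, 1 count in all, against 3.19 to 5.10 CPM with a median of 4.25 CPM in WT mTEChi, from 77 counts. From the summed counts Foxi2 was 42.6-fold lower in AireKO mTEChi, with a 95% counting interval of 7.42 to 1703, and it passed the test (log2 change -5.01 ± 0.77, adjusted p = 4.0e-06). Without library 1, the AireKO library with that count, 0 counts were left and the fitted log2 change was -6.68, which is no bound. Foxi3, the third mouse member of the family, had 0 counts in AireKO mTEChi and 23 counts in WT mTEChi. That made it at least 4.24-fold lower, taking 3 counts over the 4 AireKO libraries as the limit, and it was too low to be tested. Foxi3 also had 0 counts in both mTEClo groups.

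Ascl3, a basic helix-loop-helix factor found in ionocytes and in salivary gland ducts, was near the limit of detection in mTEChi of both genotypes. It had 0.428, 1.19, 0.333 and 0.406 CPM in AireKO mTEChi, against 0 to 1.82 CPM with a median of 0.599 CPM in WT mTEChi. The groups overlapped, and the log2 change of 0.07 ± 0.90 did not pass (adjusted p = 0.96). A difference in Ascl3 was not detectable at this depth.

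The transport genes Slc12a2 and Cftr were lower by smaller factors and from much higher levels. Slc12a2 encodes the sodium, potassium and chloride cotransporter that loads chloride into secretory cells. It had 35.5, 33.2, 34.3 and 34.9 CPM in AireKO mTEChi, against 78.7 to 134 CPM with a median of 100.3 CPM in WT mTEChi. The 4 AireKO libraries lay close together and below all 7 WT libraries, and Slc12a2 fell by 1.56 ± 0.13 on the log2 scale, or 2.95-fold (adjusted p = 8.6e-11).

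Cftr, the chloride and bicarbonate channel gene mutated in cystic fibrosis, had 21.4, 28.4, 43.3 and 45.02 CPM in AireKO mTEChi, against 54.8 to 118 CPM with a median of 65.9 CPM in WT mTEChi. Again the groups did not overlap, and Cftr fell by 1.17 ± 0.25 on the log2 scale, or 2.25-fold (adjusted p = 4.9e-04). The 2 highest WT mTEChi libraries, at 107 and 118 CPM, were those of 4-week mice and had under 2000000 counts. The other 5, all of 5-week mice, had 54.8 to 67.7 CPM.

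Bsnd encodes barttin, a chloride channel accessory subunit that is mutated in human Bartter syndrome with deafness. It had 0.428, 0, 0.333 and 0.406 CPM in AireKO mTEChi, 3 counts in all, against 0.625 to 7.79 CPM with a median of 2.55 CPM in WT mTEChi, from 74 counts. The groups did not overlap, although the lowest WT library was close to the highest AireKO library. From the summed counts Bsnd was 13.6-fold lower in AireKO mTEChi (95% counting interval 4.49 to 67.6), and its log2 change was -3.51 ± 0.95 (adjusted p = 0.0029).

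Of the proton pump subunits, Atp6v1b1 encodes the B1 form of the ATP-binding B subunit, which is used by intercalated cells and mutated in human distal renal tubular acidosis with deafness. It had 1.28, 1.58, 1.33 and 2.43 CPM in AireKO mTEChi, against 8.13 to 19.8 CPM with a median of 13.97 CPM in WT mTEChi. All AireKO libraries lay below all WT libraries, and Atp6v1b1 fell by 3.14 ± 0.38 on the log2 scale, or 8.83-fold (adjusted p = 8.7e-08).

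Atp6v1c2, the C2 form of the subunit that links the pump's sectors, had 1.28, 0.790, 0.333 and 1.62 CPM in AireKO mTEChi, against 3.89 to 10.5 CPM with a median of 6.62 CPM in WT mTEChi. It was lower without overlap (log2 change -3.06 ± 0.44, 8.36-fold, adjusted p = 1.1e-06). Atp6v0d2, the d2 form of a membrane sector subunit found in kidney and in osteoclasts, had 0.857, 1.19, 0.333 and 0 CPM in AireKO mTEChi, against 3.18 to 11.3 CPM with a median of 6.88 CPM in WT mTEChi. It too was lower without overlap (log2 change -3.75 ± 0.65, 13.4-fold, adjusted p = 2.1e-05). Among 5-week male libraries the log2 change of Atp6v0d2 was -2.89.

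Because Atp6v0d2 is also made by osteoclasts and macrophages, the marker genes of those cells were read beside it. Of 10 such markers, 8 were tested in mTEChi, and 2 were higher and 6 lower in AireKO. Over all genes tested 23.9% were higher and 29.4% lower, shares that the kidney markers below are read beside as well. The summed level of the 10 markers was 354 to 404 CPM in AireKO mTEChi, 289 to 360 CPM in WT mTEChi, 111 to 156 CPM in AireKO mTEClo and 38.2 to 66.8 CPM in WT mTEClo. The osteoclast fusion genes Ocstamp and Dcstamp were picked out once their values were known, and do not stand for the list. Both had 0 counts in both mTEClo groups. In AireKO mTEChi Ocstamp and Dcstamp had 3 and 1 counts, against 34 and 65 in WT mTEChi. Kidney markers were read beside Bsnd in the same way: the 3 of 5 that could be tested were all lower in AireKO mTEChi, with sums of 6.00 to 10.1 CPM in AireKO mTEChi, 52.7 to 134 CPM in WT mTEChi, 5.15 to 26.1 CPM in AireKO mTEClo and 13.4 to 37.2 CPM in WT mTEClo, and Aqp2 had 0 counts in AireKO mTEChi. The part of either marker list in these results was not tested.

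Stap1, an adaptor protein of immune receptor signalling that is also listed among airway ionocyte markers, did not follow the other genes. It had 10.3, 10.3, 11.0 and 8.11 CPM in AireKO mTEChi, against 4.25 to 10.6 CPM with a median of 7.48 CPM in WT mTEChi. The groups overlapped and the log2 change of 0.39 ± 0.26 did not pass (adjusted p = 0.21). Stap1 is known from B cells, and of 8 B cell markers 7 were tested, of which 3 were higher and 3 lower in AireKO mTEChi. Over all genes tested 23.9% were higher and 29.4% lower. The markers summed to 208 to 299 CPM in AireKO mTEChi, 158 to 217 CPM in WT mTEChi, 40.8 to 65.4 CPM in AireKO mTEClo and 46.4 to 63.1 CPM in WT mTEClo, with none at 0. Their part in the Stap1 values was not tested.

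Promoter windows are reported for 6 of the 10 genes: Foxi1, Foxi2, Ascl3, Cftr, Atp6v1b1 and Atp6v1c2. The other genes have no window here, which does not mean that no sequence exists for them. The letters TGTTTAC, a core that forkhead factors bind, were searched on both strands of the 250 bases before the start. CAGCTG, an E-box of helix-loop-helix factors, was searched in the same way. Here the start is that of the RefSeq promoter entry, which can differ from the gene boundary given above. For Foxi2, Atp6v1b1 and Atp6v1c2 the window reaches into the gene as bounded above. The forkhead core was in 1 of 6 windows, that of Atp6v1b1, against 3.17% of all 32851 windows of this length, and CAGCTG was in 0 of 6, against 13% of all windows. A match describes the letters only, and no match says only that these letters are not in this window. The windows of Atp6v1b1 (chr6:83742767-83743016, plus strand), shown for its match, and of Foxi1 (chr11:34208090-34208339, minus strand), shown because the other genes are read beside Foxi1, are from RefSeq on GRCm38.p6 and read 5′ to 3′ towards the start, with the forkhead core in capitals at bases 98 to 92 before the start of Atp6v1b1.
Atp6v1b1: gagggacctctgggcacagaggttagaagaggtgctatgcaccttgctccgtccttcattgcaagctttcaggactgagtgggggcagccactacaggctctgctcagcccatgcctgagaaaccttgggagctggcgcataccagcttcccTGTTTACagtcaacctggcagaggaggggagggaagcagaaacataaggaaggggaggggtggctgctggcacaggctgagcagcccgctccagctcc
Foxi1: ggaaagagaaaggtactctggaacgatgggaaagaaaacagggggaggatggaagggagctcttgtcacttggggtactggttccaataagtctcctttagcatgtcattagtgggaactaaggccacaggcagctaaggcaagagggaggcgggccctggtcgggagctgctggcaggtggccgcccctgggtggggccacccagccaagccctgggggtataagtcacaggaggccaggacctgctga

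Of the 3 isoforms of these subunits that most cells use, 0 passed as lower in AireKO mTEChi and 2 passed as higher. Over all genes tested 29.4% were lower and 23.9% higher. Atp6v1b2, the widely made B subunit, had 162, 172, 191 and 195 CPM in AireKO mTEChi, against 172 to 211 CPM in WT mTEChi, and did not pass (log2 change -0.09 ± 0.08, adjusted p = 0.36). Atp6v1c1, the widely made C subunit, had 239 to 262 CPM in AireKO mTEChi and 147 to 213 CPM in WT mTEChi and was higher (log2 change 0.55 ± 0.10, adjusted p = 4.8e-05). Atp6v0d1, the widely made d subunit, had 107 to 109 CPM in AireKO mTEChi and 71.6 to 96.2 CPM in WT mTEChi and was higher as well (log2 change 0.33 ± 0.09, adjusted p = 0.0028). Neither Atp6v1c1 nor Atp6v0d1 overlapped between the groups.

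Per kilobase of exon, the restricted isoforms were minor forms in both genotypes. Atp6v1b1 averaged 0.378 CPM per kilobase in AireKO mTEChi and 3.06 in WT mTEChi, beside 33.96 in AireKO mTEChi and 35.5 in WT mTEChi for Atp6v1b2. Atp6v1c2 averaged 0.463 CPM per kilobase in AireKO mTEChi and 3.53 in WT mTEChi, beside 44.9 and 30.5 for Atp6v1c1 in the same groups. Atp6v0d2 averaged 0.219 CPM per kilobase in AireKO mTEChi and 2.86 in WT mTEChi, beside 60.1 and 46.9 for Atp6v0d1.

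**Figure D2:**
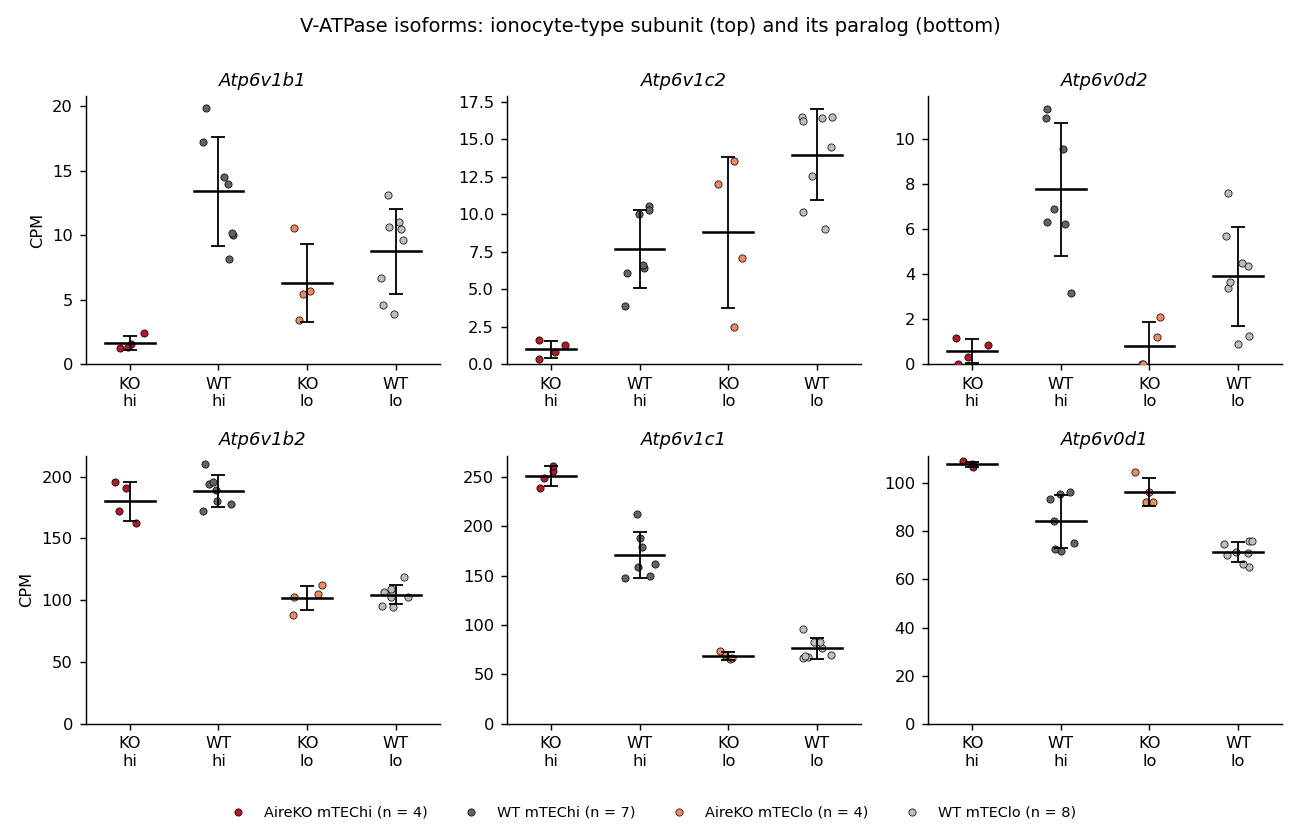
CPM in every library (points), with group mean (bar) and SD (whiskers), for the B, C and d subunits of the proton pump, the restricted isoforms above and the widely made ones below, each on its own axis. In AireKO mTEChi all points of the 3 restricted isoforms lie below those of WT mTEChi, while Atp6v1b2 overlaps between these groups and Atp6v1c1 and Atp6v0d1 lie above.

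The rest of the pump was read from a list of 22 other subunits and accessory proteins, of which 20 were tested. In AireKO mTEChi 7 of the 20 were higher and 2 lower, with a median log2 change of 0.09, beside 23.9% higher and 29.4% lower over all genes. The higher ones besides Atp6v1c1 and Atp6v0d1 were Atp6v0e (0.79), Atp6v1g2 (0.64), Atp6v0b (0.37), Atp6ap1 (0.37) and Tcirg1 (0.36), with adjusted p between 3.2e-07 and 0.015. The lower ones were Atp6ap2 (-0.43, adjusted p = 0.0087) and Atp6v0a4, the kidney form of the a subunit (-0.98 ± 0.33, adjusted p = 0.013). Atp6v0a4 had 8.99, 9.88, 5.32 and 2.43 CPM in AireKO mTEChi, against 11.5 to 19.3 CPM in WT mTEChi, and it no longer passed with age in the fit (-0.70, adjusted p = 0.13), among 5-week males, or without library 4 at 2.43 CPM (-0.71, adjusted p = 0.070). Atp6v1g2 was lost in the same 3 settings and Tcirg1 with age in the fit, and Atp6ap2 did not pass without the libraries under 2000000 counts or without AireKO mTEChi library 1. Atp6v1g3, the kidney G subunit, had 9 counts in AireKO mTEChi and 23 in WT mTEChi and was not tested.

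Other genes known from ionocytes and intercalated cells fell more often than they rose in AireKO mTEChi. Of 27 such genes 23 were tested, 17 were lower and 2 higher, beside 29.4% lower and 23.9% higher over all genes tested. The median log2 change was -1.85. Slc4a9, an anion exchanger of the intercalated cell, averaged 4.53 ± 2.10 CPM in AireKO mTEChi and 30.0 ± 8.21 CPM in WT mTEChi (log2 change -2.80, adjusted p = 1.0e-08). Rhcg, an ammonia channel of the collecting duct, averaged 1.81 ± 1.37 CPM in AireKO mTEChi and 32.9 ± 7.48 CPM in WT mTEChi (-4.36, adjusted p = 5.5e-08), and Sema3c, a secreted guidance protein, averaged 2.28 ± 1.29 and 21.7 ± 5.27 CPM in the same groups (-3.37, adjusted p = 4.6e-08). The 2 higher ones were Dmrt3 (1.32) and Oxgr1 (1.82), which were picked out once their values were known. The intercalated cell genes Tfcp2l1 (0.28), Slc26a4 (-0.27), Rhbg (-0.43) and Insrr (-0.43), likewise picked out afterwards, did not pass.

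Broader lists moved less in 1 direction, and are read beside 29.4% lower and 23.9% higher over all genes tested. Of 32 other chloride and potassium transport genes of secretory epithelia 29 were tested, 14 were lower and 6 higher, and the median log2 change was -0.22. Within the cotransporter family of Slc12a2, Slc12a3 fell by 4.21 and Slc12a1 by 2.25 on the log2 scale (adjusted p = 1.5e-10 and 1.0e-06), while the potassium and chloride cotransporter gene Slc12a4 was higher by 1.22 (adjusted p = 2.3e-08). Of 22 regulators of other mimetic mTECs 20 were tested, 7 were lower and 4 higher, with a median of -0.04. Trp73, a regulator of ciliated cells, had a log2 change of -5.12 (adjusted p = 3.1e-11), and Sox9 one of 0.99 (adjusted p = 1.5e-06). Mcidas, which starts ciliation, had 1 count in AireKO mTEChi and 754 in WT mTEChi, a ratio of 417 with a 95% counting interval of 74.6 to 16486 (adjusted p = 1.8e-07). The fitted log2 change of Trp73 was -6.29 without AireKO mTEChi library 3, and that of Mcidas, -8.23, was -9.90 without library 2. Of 11 genes paralogous to the 10, 8 were tested, 3 were higher and 2 lower, the 2 being Slc12a1 and Ascl2 (-2.84, adjusted p = 1.2e-04).

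**Figure D3:**
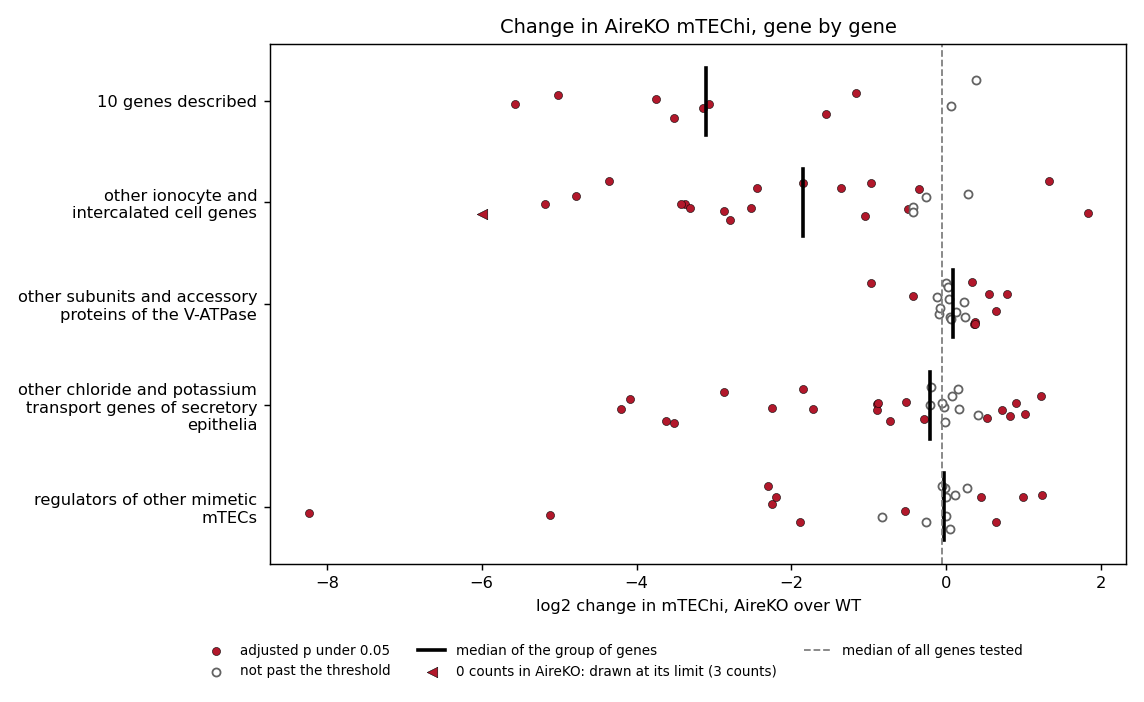
Log2 change of single genes in mTEChi, AireKO over WT (points, filled where the adjusted p was under 0.05), for the 10 genes and 4 gene lists, with the median of each (bars) and of all genes tested (dashed line); a triangle marks Slc4a1, with 0 counts in AireKO mTEChi, at its limit. The medians are -3.10 for the 10 genes, -1.85 for other ionocyte and intercalated cell genes, 0.09 for the rest of the proton pump, -0.22 for chloride and potassium transport and -0.04 for regulators of other mimetic mTECs.

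In mTEClo, the gate with less Aire, 5 of the 10 genes were lower in AireKO: Foxi1, Foxi2, Cftr, Atp6v0d2 and Atp6v1c2. Over all genes 8.91% passed as lower and 12.9% as higher, and 0 of the 10 genes passed as higher. In 0 of the 10 did every AireKO library lie below every WT library, beside 5.34% of all genes. The median log2 change was -0.79 over the 10 genes and 0.03 over all genes.

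Foxi1 had 8.72, 1.87, 2.701 and 8.10 CPM in AireKO mTEClo, against 5.00 to 19.8 CPM with a median of 9.71 CPM in WT mTEClo. Of the AireKO libraries 2 lay below all WT libraries and 2 within their range, and the log2 change was -1.13 ± 0.35 (adjusted p = 0.020). Foxi2 had 0, 0, 1.20 and 0.245 CPM in AireKO mTEClo, against 0.298 to 3.39 CPM with a median of 1.69 CPM in WT mTEClo (log2 change -2.07 ± 0.65, adjusted p = 0.021). Ascl3 had 2.73, 0.622, 1.80 and 3.43 CPM in AireKO mTEClo, against 0.506 to 7.49 CPM with a median of 3.92 CPM in WT mTEClo. The Ascl3 groups overlapped and its change did not pass (-0.74 ± 0.52, adjusted p = 0.32).

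Cftr had 24.0, 26.1, 33.6 and 39.3 CPM in AireKO mTEClo, against 33.7 to 68.8 CPM with a median of 56.7 CPM in WT mTEClo (log2 change -0.82 ± 0.26, adjusted p = 0.024). Within WT mTEClo the 5 libraries of 4-week mice had 56.6 to 68.8 CPM and the 3 of 5-week mice 33.7 to 41.8 CPM, and the AireKO libraries overlapped only with those of 5-week mice. Slc12a2 had 197, 256, 232 and 272 CPM in AireKO mTEClo, against 234 to 327 CPM with a median of 270 CPM in WT mTEClo, and did not pass (-0.21 ± 0.11, adjusted p = 0.17).

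Of the pump subunits, Atp6v0d2 had 0, 0, 2.10 and 1.23 CPM in AireKO mTEClo, against 0.895 to 7.63 CPM with a median of 4.02 CPM in WT mTEClo (-1.92 ± 0.61, adjusted p = 0.023). Atp6v1c2 had 7.09, 2.49, 13.5 and 12.02 CPM in AireKO mTEClo, against 8.997 to 16.5 CPM with a median of 15.3 CPM in WT mTEClo (-0.73 ± 0.27, adjusted p = 0.047). Within WT mTEClo the 5 libraries of 4-week mice had 14.5 to 16.5 CPM of Atp6v1c2 and the 3 of 5-week mice 8.997 to 12.5 CPM. In WT mTEClo the 2 ages overlapped for 8 of the 10 genes, all but Cftr and Atp6v1c2. Atp6v1b1 had 5.45, 10.6, 5.70 and 3.43 CPM in AireKO mTEClo, against 3.88 to 13.1 CPM with a median of 10.1 CPM in WT mTEClo, and its change of -0.75 ± 0.32 did not pass (adjusted p = 0.086). Atp6v1c2 was lowest in AireKO mTEClo library 2, and Atp6v0d2 had 0 counts in libraries 1 and 2. In all 3 genes the groups overlapped.

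Bsnd had 0, 0.622, 2.40 and 0.491 CPM in AireKO mTEClo, against 0.506 to 6.24 CPM with a median of 1.61 CPM in WT mTEClo (-0.86 ± 0.80, adjusted p = 0.47). Stap1 had 2.73, 2.49, 1.80 and 3.19 CPM in AireKO mTEClo, against 0.624 to 4.17 CPM with a median of 2.64 CPM in WT mTEClo (-0.08 ± 0.35, adjusted p = 0.91). Neither passed, and both overlapped.

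The 5 calls in mTEClo depended on which libraries entered and on the terms fitted. With age in the fit 0 of the 10 genes passed, and 0 passed without the libraries under 2000000 counts, a step that leaves 2 AireKO libraries. Without AireKO mTEClo library 1 the count was 1 (Foxi1), without library 2 it was 2, and without library 4, or without WT mTEClo library 4, it was 3. Foxi1 was lost without AireKO library 2 (adjusted p = 0.057) or 3 (0.097), Foxi2 without AireKO library 1 (0.051) or 4 (0.081) or WT library 4 (0.056), and Cftr without AireKO library 1 (0.074) or 2 (0.062). Atp6v0d2 was lost without AireKO library 1, 2 or 4 or WT library 6 (0.050 to 0.057), and Atp6v1c2 without AireKO library 1 or 2 or any of WT libraries 1 to 5 (0.053 to 0.14). Without AireKO library 3 the falls of Foxi2 and Atp6v0d2 were larger, at -3.59 and -2.64. Atp6v1b1 passed without WT library 3 (0.025) or AireKO library 2 (0.022). Among 5-week male libraries, with 1 WT library, the log2 change of Atp6v1c2 was -1.35. Foxi2 and Atp6v0d2 had 0 counts in AireKO libraries 1 and 2, the AireKO libraries of that subset, so their fitted falls there are no bound. In AireKO mTEClo 2 of 23 other ionocyte and intercalated cell genes were higher and 1 lower, and 5 of 20 other pump genes were higher and 0 lower, beside 12.9% higher and 8.91% lower over all genes.

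The difference between the gates in the AireKO effect was tested as an interaction. It passed, with a larger fall in mTEChi, for 4 of the 10 genes, beside 15.5% of all genes lower and 8.61% higher, and for 0 of the 10 in the other direction. The difference in log2 change was -4.44 ± 0.73 for Foxi1 (adjusted p = 5.1e-05), -2.39 ± 0.51 for Atp6v1b1 (8.2e-04), -2.33 ± 0.52 for Atp6v1c2 (0.0014) and -1.35 ± 0.16 for Slc12a2 (3.5e-07). Foxi2 (-2.94, adjusted p = 0.10), Bsnd (-2.65, 0.16), Atp6v0d2 (-1.83, 0.21), Cftr (-0.35, 0.51), Ascl3 (0.80, 0.65) and Stap1 (0.46, 0.46) did not pass. For these 6 a difference between the gates was not shown. Among 5-week male libraries, where WT mTEClo holds 1 library, Atp6v1c2 did not pass (-1.72, adjusted p = 0.18), and Bsnd passed without the libraries under 2000000 counts (-3.47, adjusted p = 0.046).

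**Figure D4:**
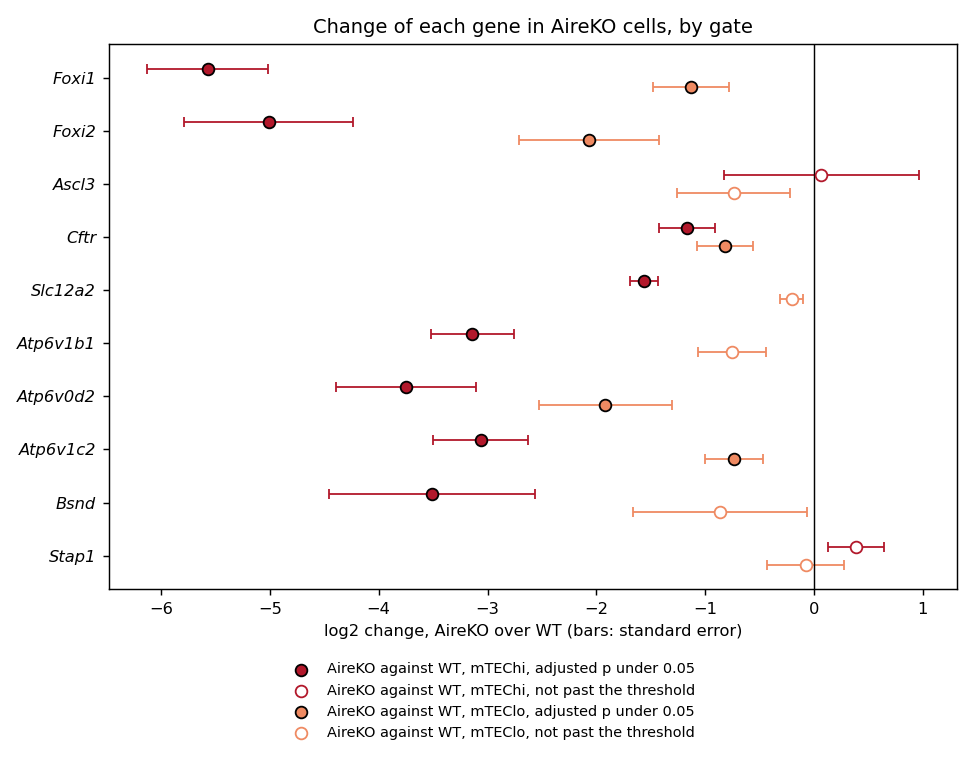
Log2 change of each of the 10 genes, AireKO over WT, in mTEChi and in mTEClo. Error bars are the approximate SE, back-calculated from the F statistic, and points are filled where the adjusted p was under 0.05. In mTEChi 8 genes lie between -5.57 and -1.17 and pass; in mTEClo the 10 changes lie between -2.07 and -0.08 and 5 pass.

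In WT cells most of the genes differed between the gates, and not all in the same direction. In mTEChi, set against mTEClo, 6 were higher (Foxi1, Foxi2, Cftr, Atp6v1b1, Atp6v0d2 and Stap1), beside 37.0% of all genes, and 3 were lower (Ascl3, Slc12a2 and Atp6v1c2), beside 32.9%. Every WT mTEChi library lay above every WT mTEClo library for 1 of the 10 (Stap1, beside 25.0% of all genes) and below for 1 (Slc12a2, beside 18.9%). These comparisons use the same WT libraries as those above.

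Foxi1 averaged 19.0 ± 4.20 CPM in WT mTEChi (SD, n = 7) and 11.2 ± 5.23 CPM in WT mTEClo (n = 8), with overlap, and was higher in mTEChi (log2 change 0.75 ± 0.24, SE, adjusted p = 0.0062). Among male libraries alone this did not pass (0.62, adjusted p = 0.059), and among 5-week males it was -0.04. Foxi2 averaged 4.14 ± 0.64 CPM in WT mTEChi and 1.80 ± 1.11 CPM in WT mTEClo (1.12 ± 0.34, adjusted p = 0.0045). Ascl3 had the reverse order, with 0.589 ± 0.617 CPM in WT mTEChi and 3.89 ± 2.37 CPM in WT mTEClo (-2.73 ± 0.54, adjusted p = 4.6e-05).

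Slc12a2 averaged 102 ± 16.8 CPM in WT mTEChi and 275 ± 28.02 CPM in WT mTEClo, without overlap (-1.44 ± 0.09, adjusted p = 1.6e-14). Cftr averaged 75.7 ± 26.0 CPM in WT mTEChi and 52.9 ± 13.5 CPM in WT mTEClo (0.48 ± 0.19, adjusted p = 0.029), and the call was lost without the libraries under 2000000 counts (0.30, adjusted p = 0.14) or without any 1 of WT mTEChi libraries 1, 2 and 5 or WT mTEClo libraries 6, 7 and 8 (log2 change 0.35 to 0.47). Bsnd averaged 3.67 ± 2.703 CPM in WT mTEChi and 2.12 ± 2.00 CPM in WT mTEClo and did not pass (1.00 ± 0.49, adjusted p = 0.071), but did without the libraries under 2000000 counts (1.42, adjusted p = 0.010) and without any 1 of WT mTEChi libraries 1 and 5 or WT mTEClo libraries 2 and 5 (log2 change 1.08 to 1.34). Stap1 averaged 7.501 ± 2.27 CPM in WT mTEChi and 2.56 ± 1.10 CPM in WT mTEClo (1.47 ± 0.24, adjusted p = 3.0e-06), and all 7 tested B cell markers were higher in WT mTEChi than in WT mTEClo, beside 37.0% of all genes; their part in this difference was not tested.

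The pump subunits split. Atp6v1b1 averaged 13.4 ± 4.22 CPM in WT mTEChi and 8.73 ± 3.31 CPM in WT mTEClo (0.60 ± 0.22, adjusted p = 0.019), and Atp6v0d2 averaged 7.78 ± 2.95 CPM in WT mTEChi and 3.92 ± 2.20 CPM in WT mTEClo (0.99 ± 0.35, adjusted p = 0.012). Atp6v1c2 was lower in mTEChi, at 7.68 ± 2.58 CPM in WT mTEChi and 13.96 ± 3.05 CPM in WT mTEClo (-0.91 ± 0.22, adjusted p = 5.3e-04). The Atp6v1b1 call was lost without WT mTEChi library 7 (0.51, adjusted p = 0.052) or WT mTEClo library 3 (0.45, 0.062), and the Atp6v0d2 call among males alone (0.94, adjusted p = 0.064). Among 5-week males, 3 WT mTEChi libraries against 1 WT mTEClo library, only Ascl3, Slc12a2 and Stap1 passed between the gates; the log2 change was 0.36 for Foxi2, 0.64 for Atp6v1b1, 0.08 for Atp6v0d2 and -0.46 for Atp6v1c2.

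In AireKO cells Foxi1 and Atp6v1b1 were lower in mTEChi than in mTEClo, while in WT cells both had passed as higher. The WT call for Foxi1 was lost among males (0.62, adjusted p = 0.059) and its value was -0.04 among 5-week males, and all AireKO libraries were male. The WT call for Atp6v1b1 was lost without WT mTEChi library 7, without WT mTEClo library 3 and among 5-week males (adjusted p = 0.12). In AireKO mTEChi, set against AireKO mTEClo, 5 of the 10 genes were lower (Foxi1, Ascl3, Slc12a2, Atp6v1b1 and Atp6v1c2), beside 29.9% of all genes, and 1 was higher (Stap1), beside 27.7%. The libraries of the gates did not overlap for 4 of the lower genes, all but Ascl3, beside 23.6% of all genes, and for Stap1, beside 23.7%. Foxi1 averaged 0.390 ± 0.041 CPM in AireKO mTEChi (SD, n = 4) and 5.35 ± 3.56 CPM in AireKO mTEClo (n = 4), a log2 change of -3.69 ± 0.70 (adjusted p = 5.2e-05). Atp6v1b1 averaged 1.66 ± 0.53 CPM in AireKO mTEChi and 6.29 ± 3.03 CPM in AireKO mTEClo (-1.79 ± 0.46, adjusted p = 0.0013). A reversal of the order was not tested as such.

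Atp6v1c2 averaged 1.01 ± 0.57 CPM in AireKO mTEChi and 8.78 ± 5.01 CPM in AireKO mTEClo (-3.24 ± 0.45, adjusted p = 3.2e-07), and Slc12a2 averaged 34.5 ± 1.00 and 239 ± 32.3 CPM in the same groups (-2.80 ± 0.14, adjusted p = 1.3e-16). Stap1 averaged 9.91 ± 1.24 CPM in AireKO mTEChi and 2.55 ± 0.58 CPM in AireKO mTEClo (1.93 ± 0.33, adjusted p = 9.1e-06). The Ascl3 call (-1.93 ± 0.78, adjusted p = 0.037) was lost with DESeq2 (adjusted p = 0.052) and without any 1 of AireKO mTEChi libraries 1, 3 and 4 or AireKO mTEClo libraries 1 and 4 (adjusted p 0.055 to 0.17). Cftr (0.13, adjusted p = 0.72), Atp6v0d2 (-0.84, 0.47), Bsnd (-1.64, 0.28) and Foxi2 (-1.82, 0.21) did not pass. Same-numbered AireKO libraries of the gates correlated in their deviations (0.139 to 0.222), but the own number matched best in only 2 of 4 pairs. Pairing by number was thus not shown. In a fit of the AireKO libraries alone with the replicate number as a block, 3 of the 10 genes reached the filter. Of these 2 passed, Slc12a2 and Stap1.

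By mean CPM the order of the groups for Foxi1 was WT mTEChi, WT mTEClo, AireKO mTEClo and AireKO mTEChi, and only the step between AireKO mTEClo and AireKO mTEChi was free of overlap. Foxi2, Atp6v1b1, Atp6v0d2 and Bsnd kept this order, with overlap at each step for Foxi2, Atp6v0d2 and Bsnd and, as for Foxi1, a last step without overlap for Atp6v1b1. Slc12a2, Atp6v1c2 and Ascl3 ran WT mTEClo, AireKO mTEClo, WT mTEChi and AireKO mTEChi, with overlap at each step for Ascl3, a last step without overlap for Atp6v1c2 and the last 2 for Slc12a2. Cftr ran WT mTEChi, WT mTEClo, AireKO mTEChi and AireKO mTEClo, with overlap at each step, and Stap1 ran AireKO mTEChi, WT mTEChi, WT mTEClo and AireKO mTEClo, without overlap between the gates.

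Profiles over the 23 libraries were ranked by nearness to that of Foxi1 among tested genes, leaving out model names such as Gm and Rik symbols. The 5 nearest in that set were Kcnk16, Ugt8a, Tekt1, Oas1h and Smyd1. The root mean square difference from Foxi1, between log2 CPM centred on each gene's mean, was 0.529 for Kcnk16, 0.567 for Ugt8a, 0.576 for Tekt1, 0.591 for Oas1h and 0.630 for Smyd1. Kcnk16, a potassium channel gene, had 0 counts in AireKO mTEChi, 12.3 to 19.8 CPM in WT mTEChi, 1.24 to 6.38 CPM in AireKO mTEClo and 7.93 to 10.2 CPM in WT mTEClo. Smyd1, a methyltransferase gene of muscle, also had 0 counts in AireKO mTEChi, beside 21.4 to 35.4 CPM in WT mTEChi. Among the other 9 genes described here Atp6v1b1 was nearest, at rank 94, then Foxi2 at 127, Atp6v0d2 at 170 and Atp6v1c2 at 253, with Cftr at 794, Bsnd at 1469, Slc12a2 at 1917, Ascl3 at 10511 and Stap1 at 13245. The points share libraries and depth, and the likeness is a description of these 23 libraries.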

How the data were processed

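The authors deposited raw counts per Ensembl gene for each library. Per the labels, cDNA was primed with oligo-dT and NSR primers and cut with Tn5, which keeps no strand. The submitters' processing notes name HTSeq 0.11.2, STAR 2.7.3a, fastp 0.20.0, Picard 2.21.1, edgeR, SAMtools 1.9 and GRCm38, without roles. A normalized signal table deposited by the authors was not used. Symbols came from GENCODE M21 (53402 of 53402 identifiers). The 10 genes and all lists were chosen with earlier results of these data known.

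In edgeR 4.0.16 (R 4.3.3), filterByExpr (minimum count 10) left 19310 genes. TMM factors and robust quasi-likelihood fits used all 23 libraries with terms for group and sex, and p-values were adjusted over all genes tested (Benjamini-Hochberg, threshold 0.05). CPM used TMM factors. A group at 0 was given a limit of 3 counts over the group; intervals (95%) cover counting error only. On simulated counts for AireKO against WT mTEChi (19310 genes), 63% of 2-fold and 92% of 4-fold changes were recovered. Alternatives were other scalings (RLE, upper quartile), no filter, DESeq2 1.42.0, other covariates and thresholds, library subsets, and each library left out. Besides the 10 genes, up to 3 genes of each list with the smallest p in mTEChi, pump subunits that passed, 7 set genes and the 5 nearest to Foxi1 are named; some results are not reported here. Same-numbered libraries of AireKO mTEChi and AireKO mTEClo correlated in their deviations (0.139 to 0.222 over 4 pairs), but the own number matched best in only 2 of the 4. Libraries 1 and 3 of AireKO mTEChi matched libraries 2 and 4 of AireKO mTEClo best, each of the same age. Pairing by number was thus not shown, and the labels do not say what the numbers pair. No 2 libraries of a group agreed within sampling noise (lowest chi-square per degree of freedom 1.23).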

Additional observations from a re-analysis of the deposited data

Results flagged for a closer look

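The highest of the 4 AireKO mTEChi libraries for Ascl3, library 2 at 1.19 CPM, stood apart from the other 3, as did the highest of the 7 WT mTEChi libraries, library 2 at 1.82 CPM. For Foxi2, AireKO mTEChi library 1 at 0.428 CPM stood apart from the other 3, which had 0; the value is a single count. Among 40 groups of values examined, 3 held such a library. The rule's nominal rate of about 1 group in 20 by chance assumes values that vary smoothly. It does not hold for counts this low, so the number marked cannot be set against chance.

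The AireKO effect differed between mTEChi and mTEClo by a test of the difference for Foxi1 (-4.44 on the log2 scale), Atp6v1b1 (-2.39), Atp6v1c2 (-2.33) and Slc12a2 (-1.35). Each was lower in mTEChi.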

How the results depend on the processing

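In mTEChi, AireKO against WT, 7 to 8 of the 10 genes passed over 25 alternatives, and 8 to 8 when each library was left out; the 7 arose where Bsnd was too low to be tested. In mTEClo the count of 5 was 0 with age in the fit, 0 without the libraries under 2000000 counts, 0 at an adjusted p under 0.01, 1 with the libraries of the comparison alone (8 of the 10 tested), 3 with a change of over 2-fold required, and 1 to 5 with each library left out. Between the gates the count of 9 in WT was 5 among males, where 8 of the 10 could be tested, 3 among 5-week males, 4 with over 2-fold required and 8 to 10 with a library left out. The count of 6 in AireKO was 2 with those libraries alone and 2 with a replicate block in those libraries, where 3 of the 10 genes could be tested, and 5 to 6 with a library left out. The 4 interactions ranged from 3 to 5, and stayed at 4 with a library left out.

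With a replicate block over all libraries the counts were 8, 5, 9, 6 and 4. The block moved Slc12a2 in mTEClo past the threshold (-0.30, adjusted p = 0.043) and Atp6v1c2 out of it (adjusted p = 0.054). Replicate numbers of AireKO and WT mTEChi correlated at -0.179 to -0.049, of AireKO and WT mTEClo at 0.036 to 0.098, and of the WT gates at -0.106 to 0.074, so these share only a number.

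Changes of sign were few, and each value concerned did not pass. In mTEChi Ascl3 was -7.4e-06 with upper quartile factors, whose shift of all genes (-0.0747) exceeds its value of 0.07 under TMM, -0.16 with age in the fit and -0.48 to 0.47 with a library left out, and Atp6v1b2 was -0.13 to 0.0020. In mTEClo Stap1 was 0.13 with age in the fit and -0.30 to 0.088 with a library left out. Between the AireKO gates Cftr was -0.022 without the libraries under 2000000 counts and -0.013 to 0.35 with a library left out. Among 5-week males Foxi1 between the WT gates was -0.041. Foxi2 and Atp6v0d2 between the AireKO gates were 2.39 and 4.47, and their interactions 2.03 and 4.39. Both genes had 0 counts in AireKO mTEClo libraries 1 and 2, the only AireKO mTEClo libraries of that subset, so these fitted values are no bound. The causes of the other changes of sign were not tested. Other scalings moved the median of all genes by at most -0.0747, and 39 of 40 group levels by less than 1 SD.

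AireKO mTEChi held 1 to 6 counts of Foxi1, Foxi2, Ascl3, Atp6v0d2 and Bsnd, so depth limits their folds. Age and genotype overlap only at 5 weeks, and all AireKO libraries were male.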

Other observations

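Slc4a1 was also at 0 counts in AireKO mTEChi and was picked out once its values were known. It encodes an anion exchanger of intercalated and red blood cells. The gene had 346 counts in WT mTEChi and was at least 63.8-fold lower. Of the genes nearest to Foxi1, Kcnk16 was at least 52.5-fold, Ugt8a at least 40.4-fold, Tekt1 at least 31.1-fold and Smyd1 at least 88.8-fold lower in AireKO mTEChi by the same limit of 3 counts over the group. Oas1h averaged 1.37 ± 0.45 CPM in AireKO mTEChi and 32.4 ± 7.47 CPM in WT mTEChi.

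Of 5 thymocyte markers tested 4 were lower and 0 higher in AireKO mTEChi, beside 29.4% lower and 23.9% higher over all genes tested. The 9 listed summed to 38.3 to 49.9 CPM in AireKO mTEChi, 66.8 to 84.4 CPM in WT mTEChi, 11.4 to 16.4 CPM in AireKO mTEClo and 9.72 to 18.8 CPM in WT mTEClo, with Ptcra at 0 in AireKO mTEClo. Of 7 fibroblast and endothelial markers tested 5 were lower and 1 higher in AireKO mTEChi, beside the same shares over all genes. The 8 listed summed to 83.9 to 112 CPM in AireKO mTEChi, 144 to 297 CPM in WT mTEChi, 70.3 to 173 CPM in AireKO mTEClo and 55.1 to 88.9 CPM in WT mTEClo, with Cdh5 at 0 in AireKO mTEClo. Their part in the values above was not tested.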
